A study of Mus musculus with 9 samples.

Results

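XBP1 binding in mouse liver 6 h after partial hepatectomy was compared with binding 6 h after a sham operation, using the peak lists that chromatin immunoprecipitation and sequencing (ChIP-seq) gave for these 2 libraries of the 9 samples in the series. The members are all regions of both lists, 22071 peaks after hepatectomy and 23087 after sham, or 45158 of the 64078 peaks in the 8 deposited lists. Both libraries came from wildtype C57Bl6-J mice, with surgery at 8 weeks of age. Hepatectomy removed most of the liver. The sham operation opened the abdomen, cut the falciform ligament and lifted the lobes with no resection. Both livers were immunoprecipitated with the anti-XBP1 antibody M-186. The labels do not say whether these animals received the control virus or the clodronate liposomes used in the study's silencing experiments, nor how many animals went into each library. Basal liver, liver 48 h after each operation and XBP1-silenced liver 6 h after hepatectomy, 1 library each of the same strain and with the same antibody, serve only as other lists. With 1 library per condition there is no spread between animals to set a difference against, so no test between the operations is given, and intervals (95% Clopper-Pearson) cover counting error only.

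XBP1 is a basic leucine zipper transcription factor of the unfolded protein response. When unfolded protein builds up in the endoplasmic reticulum (ER), the sensor IRE1 splices the Xbp1 messenger RNA, and the spliced form encodes an active factor that raises transcription of ER chaperones, of the ER-associated degradation (ERAD) machinery and of secretory pathway genes. Hepatocytes secrete most plasma proteins, and after surgery or injury they switch on the acute phase genes, whose products pass through the ER. The ER stress response element (ERSE) pairs a CCAAT box, bound by NF-Y, with a CCACG part that ATF6 and XBP1 can bind.

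Promoters of the ER genes are shown first because their loci hold many of the best-ranked peaks of both lists. No genome of the files' build was used here, so no peak sequence is printed. The stretches below come from the RefSeq promoter table on GRCm38.p6 (250 bases before to 50 after each gene start), run 5′ to 3′ on the gene's strand, and have the motif letters in capitals. Of the 80 genes of the fixed locus lists 65 had an entry, 27 of them among the 31 genes of the ER and unfolded protein response lists. The ERSE was searched on both strands as CCAAT, 9 bases of any kind and CCACG.
Hspa5: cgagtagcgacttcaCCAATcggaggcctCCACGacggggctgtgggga
Hsp90b1: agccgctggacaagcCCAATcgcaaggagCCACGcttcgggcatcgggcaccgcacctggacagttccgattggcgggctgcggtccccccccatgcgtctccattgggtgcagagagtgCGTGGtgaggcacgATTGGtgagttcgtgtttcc
Canx: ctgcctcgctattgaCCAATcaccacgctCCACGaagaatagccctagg
Calr: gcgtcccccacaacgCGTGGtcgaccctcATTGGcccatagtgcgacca
Pdia6: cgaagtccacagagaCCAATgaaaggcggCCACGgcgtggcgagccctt
Creld2: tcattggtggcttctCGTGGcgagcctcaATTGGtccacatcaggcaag
Dnajc3: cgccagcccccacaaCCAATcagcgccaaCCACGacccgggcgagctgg
Syvn1: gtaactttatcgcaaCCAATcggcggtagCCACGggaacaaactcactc
Herpud1: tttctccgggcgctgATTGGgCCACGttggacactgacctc
Sec24d: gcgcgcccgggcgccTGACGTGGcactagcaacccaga
The first 8 hold an ERSE. In Calr, in Creld2 and at the second Hsp90b1 match it lies on the opposite strand, so that it reads CGTGG first and ATTGG last. Herpud1 holds the closely spaced form ERSE-II (ATTGG, 1 base of any kind and CCACG, found in 12 of all promoters and in 2 of the 29 ER promoters, the other being that of Dnajb11, not printed here), and Sec24d holds TGACGTGG, the core of the unfolded protein response element (0.676% of all promoters). On GRCm38.p6, a build whose positions cannot be set beside the mm9 positions of the peaks, the stretches lie at chr2:34772010-34772058 (Hspa5, plus strand), chr10:86705518-86705671 (Hsp90b1, minus), chr11:50325785-50325833 (Canx, minus), chr8:84847060-84847108 (Calr, minus) and chr12:17266476-17266524 (Pdia6, plus). The others lie at chr15:88819505-88819553 (Creld2, plus), chr14:118937812-118937860 (Dnajc3, plus), chr19:6046517-6046565 (Syvn1, plus), chr8:94386362-94386402 (Herpud1, plus) and chr3:123267455-123267492 (Sec24d, plus).

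An ERSE was present in 39 of the 32851 promoters of the table (0.119%), which belong to 37 genes. It was present in 8 of the 29 promoters of the ER and unfolded protein response lists (27.6%) and in 0 of the 45 promoters of the other lists, acute phase genes included. The short core ACGTG was found in 19.6% of all promoters, in 13 of the 29 ER promoters and in 4 of the 45 others. A match describes these letters in these windows and does not show a bound site.

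The best-ranked peaks of each library all had a counterpart in the other. A counterpart, meaning overlap by 1 bp or more, existed for 76.9% (76.4 to 77.5%) of the regions called after hepatectomy and for 74.1% (73.5 to 74.6%) of those called after sham. Both shares depended steeply on rank, where rank 1 is the peak with the highest score of its own list and tied peaks share a rank. All 100 best-ranked hepatectomy peaks lay on a sham peak, and 77 of them lay on one of the best 100 sham ranks. All 1020 peaks within the first 1000 hepatectomy ranks (ties included) had a sham counterpart, as did all 1003 sham peaks within the first 1000 sham ranks in the other direction. By deciles of the list, the share of hepatectomy peaks with a counterpart went from 99.9% in the best-ranked decile to 82.7% in the fifth and 49.2% in the last. In the sham list it went from 99.6% to 81.5% and 42.3%. Unmatched peaks were thus rare in the upper part of both lists.

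**Figure D1:**
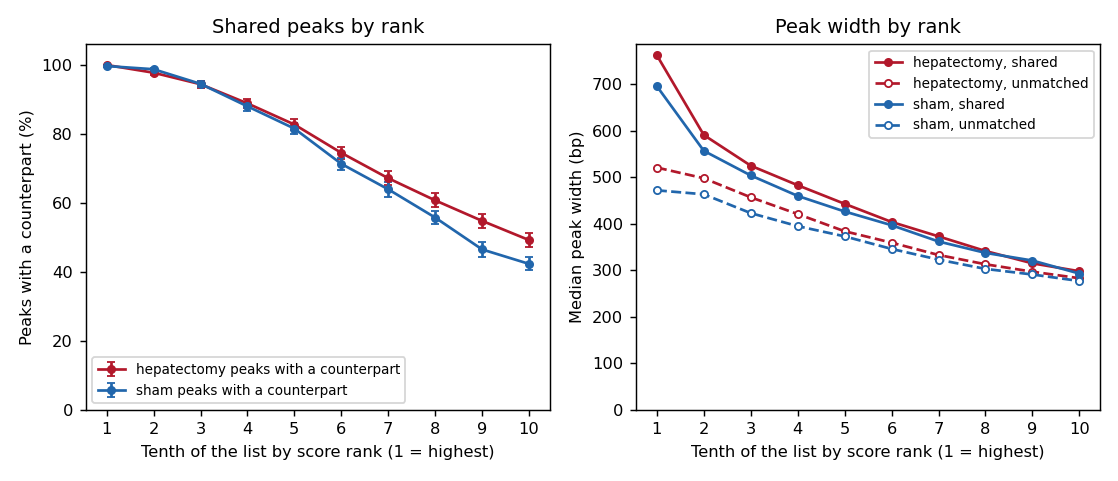
Left, percentage of peaks with a counterpart in the other 6 h list, by decile of the list by score rank (bars, 95% Clopper-Pearson intervals). Right, median peak width in bp of shared and unmatched peaks in the same deciles. Sharing drops from 99.9% to 49.2% of hepatectomy peaks and from 99.6% to 42.3% of sham peaks, and unmatched peaks are narrower than shared peaks of the same decile.

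Ranks of shared sites agreed in part. Peaks that were each other's largest overlap gave 16761 pairs, and their ranks had a Spearman rho of 0.71 across sites, which share 1 library on each side and are not replicates. Because the lists are of unlike length and score scale, ranks were set side by side as percentiles of the list, with 0 at the highest score. The median site moved by -0.90 percentage points (sham percentile minus hepatectomy percentile, so that a negative value is a better rank after sham), and the interquartile range ran from -13.8 to 10.2. Of the pairs, 44.3% kept their place within 10 percentage points and 76.0% within 25. A better rank by at least 25 percentage points was found after hepatectomy at 1829 pairs (10.9%) and after sham at 2187 pairs (13.0%). With equal numbers of highest-scoring peaks in both lists these counts were nearly alike, at 1959 and 2007 pairs. Agreement was similar within the strong sites, with a rho of 0.74 over the 1019 pairs in the first 1000 hepatectomy ranks.

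**Figure D2:**
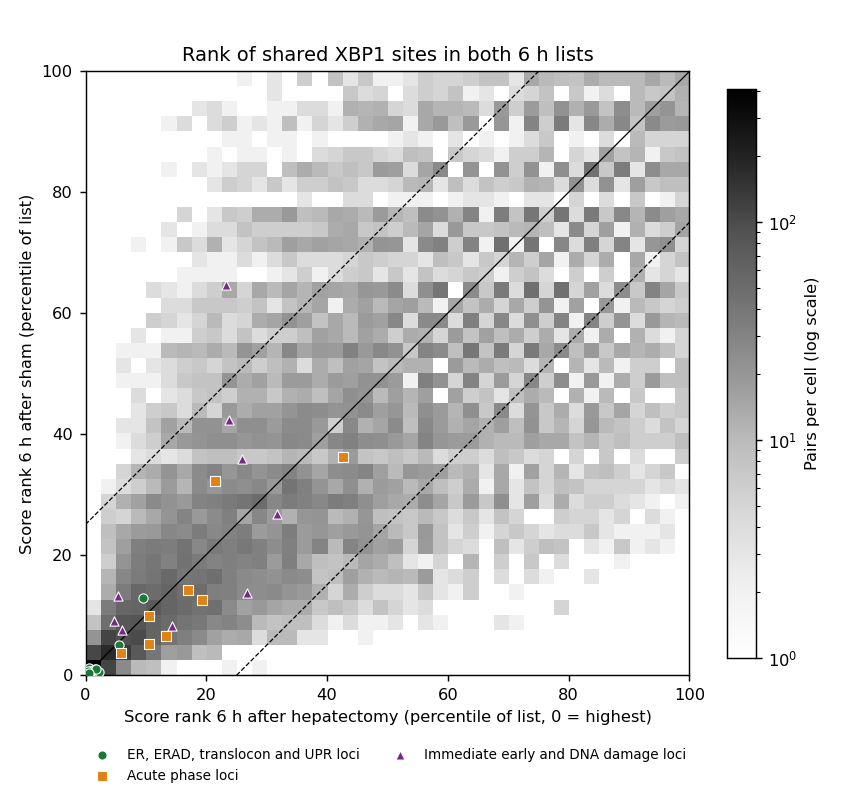
Score rank of the 16761 shared pairs as percentile of each 6 h list (0, highest score), with the number of pairs per cell in grey on a log scale. The solid line marks equal percentiles and the dashed lines a difference of 25 percentage points. Symbols mark loci whose best-ranked peaks in both lists form a pair. ER and unfolded protein response loci crowd the corner of highest rank, and 7 of the 8 acute phase loci lie below the line of equal rank, toward better sham ranks.

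The 10 pairs with the best mean rank were placed alike in both lists. The site ranked 2 after hepatectomy and 1 after sham lay at chr2:143990559-143992082 (mm9, hepatectomy peak), with widths of 1524 bp and 1577 bp. Others without a named locus here were at chr3:95754314-95755491 (rank 4 and rank 5) and chr16:38562500-38563777 (rank 8 and rank 3). Further ones lay at chr19:60866155-60867412 (rank 5 and rank 10), chr4:25208181-25209347 (rank 16 and rank 12) and chr9:65907234-65908829 (rank 22 and rank 8). The remaining 4 pairs lay at Hspa5, Hsp90b1, Hyou1 and Ssr3, described below. All 10 were also called in basal liver, in both 48 h lists and in the XBP1-silenced liver (7 days after an shXBP1 virus, given 24 h after clodronate liposomes) 6 h after hepatectomy.

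Known genes were located by windows that reach about 10 kb beyond each gene, written from general knowledge of mm9 positions and not from an annotation file. Whether a peak is exonic, intronic or in a promoter is therefore not given, and a peak in a window can belong to a neighbouring gene. Across 70 loci, 65 had a peak in both lists and the other 5 had none in either. These loci held 283 hepatectomy peaks, 74.6% of them shared, and 259 sham peaks, 84.2% of them shared, beside the 76.9% and 74.1% of all peaks. At 58 loci the best-ranked peaks of both lists were the same site, where the first by position stands for tied peaks, which matters at Trp53 alone. The best rank was nearer the top of its list after hepatectomy at 34 loci and after sham at 31.

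**Figure D3:**
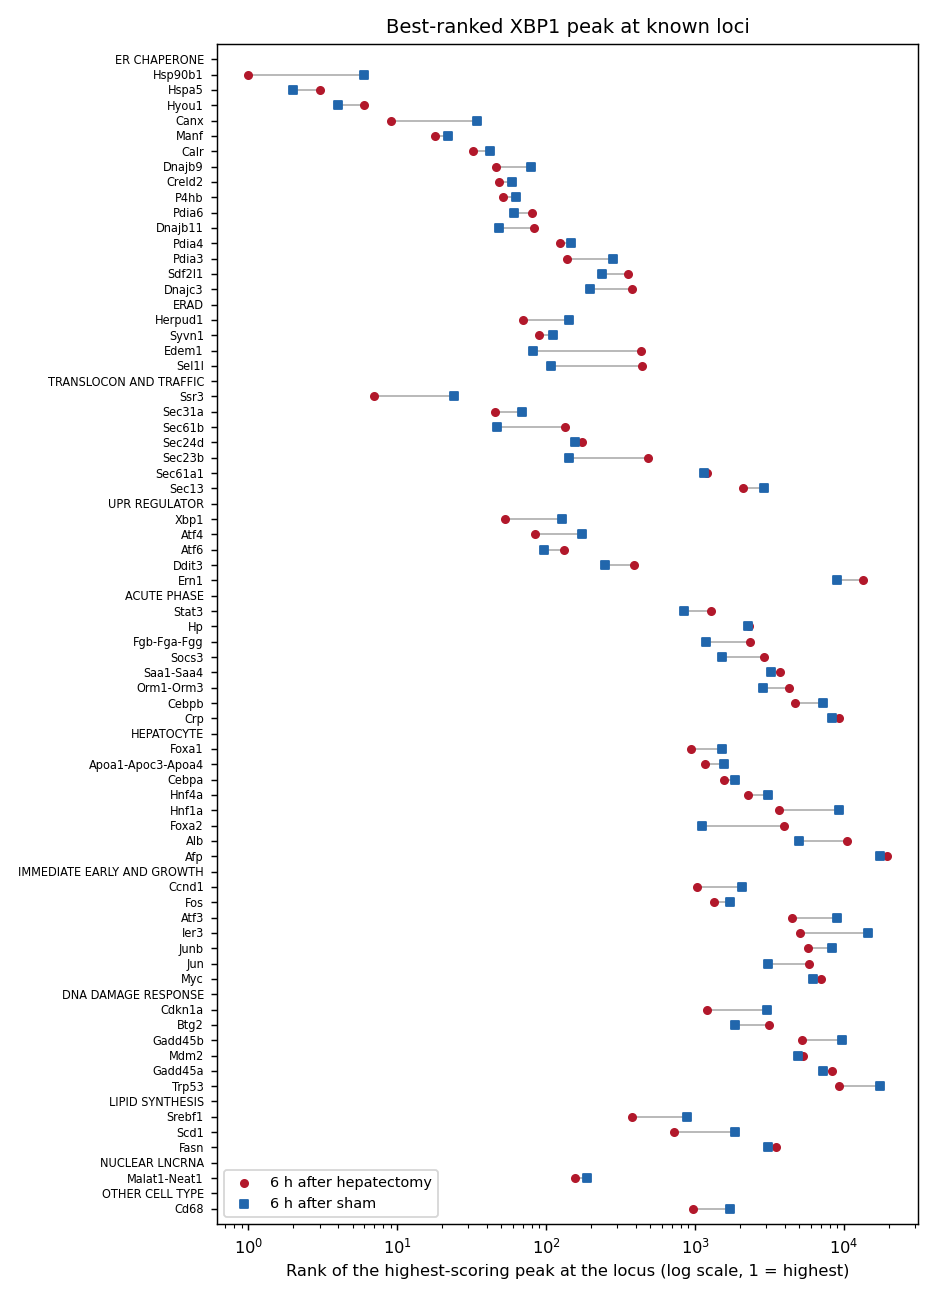
Rank of the highest-scoring peak at each of 65 known loci, 6 h after hepatectomy (red circles) and 6 h after sham (blue squares), on a log axis where 1 is the highest rank. Loci are grouped by list. ER chaperone loci occupy ranks 1 to 374 after hepatectomy and 2 to 280 after sham, whereas all but 1 of the acute phase values (Stat3 after sham, rank 841) lie beyond rank 1000.

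ER chaperone loci were near the top of both lists. All 15 had a peak within the first 1000 ranks of each list, with a median best rank of 48 after hepatectomy and 59 after sham. Of their 45 hepatectomy peaks 38 were shared, and of their 42 sham peaks 40. Hspa5, which encodes the ER chaperone BiP, had its main peak at chr2:34626722-34628400 after hepatectomy (rank 3, 1679 bp wide) and at chr2:34626918-34628261 after sham (rank 2, 1344 bp). Hsp90b1, the ER form of HSP90, held the best peak of the hepatectomy list, at chr10:86166969-86169353 (2385 bp wide), and rank 6 of the sham list (1477 bp). A second, weaker sham peak (564 bp) lay under the same hepatectomy peak. Hyou1, a large ER chaperone of the HSP70 family, ranked 6 and 4, at chr9:44186663-44188353 after hepatectomy. These 3 loci differed by at most 5 places between the operations.

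Lectin chaperones and protein disulfide isomerases ranked from 9 to 280. Canx, which encodes calnexin, ranked 9 after hepatectomy (chr11:50138575-50139845) and 34 after sham. Calr, which encodes the soluble lectin chaperone calreticulin, ranked 32 and 42. Among the disulfide isomerases P4hb ranked 51 and 63 with 7 peaks in each list, all 14 of them shared. Pdia6 ranked 80 after hepatectomy and 61 after sham, Pdia4 123 and 147, and Pdia3 137 and 280. At Pdia4 the best peaks were different sites, chr6:47763072-47764171 after hepatectomy and chr6:47738132-47738815 after sham, and both had a counterpart in the other list.

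Secreted stress proteins and co-chaperones ranked from 18 to 374. Manf, which encodes a secreted ER stress protein, ranked 18 after hepatectomy and 22 after sham, and Creld2, another secreted stress protein, 48 and 59. Of the J-domain co-chaperones Dnajb9 ranked 46 and 79, Dnajb11 ranked 83 and 48, and Dnajc3 ranked 374 and 195. Sdf2l1, a partner of BiP, ranked 356 after hepatectomy and 235 after sham, and 2 of its 3 hepatectomy peaks had no sham counterpart. The 8 genes whose promoter holds an ERSE had best ranks from 1 to 374 after hepatectomy and from 2 to 195 after sham. Over all 15 ER chaperone loci, with or without an ERSE found, the ranges were 1 to 374 and 2 to 280. All of the ERSE genes but Syvn1 are among these 15 loci. Hsp90b1 and Dnajc3, both with an ERSE, set the ends of both hepatectomy ranges. These ranges therefore cannot set genes with an ERSE against genes without it.

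Of the 4 ERAD loci, 2 ranked better after each operation. Edem1, which extracts misfolded glycoproteins from the folding cycle, ranked 433 after hepatectomy (chr6:108778099-108778821) and 81 after sham (chr6:108777961-108778588). Sel1l, the adaptor of the HRD1 ubiquitin ligase, ranked 442 and 108. In the other direction Herpud1, a membrane component of the same complex, ranked 70 after hepatectomy and 143 after sham, and its hepatectomy peak (2174 bp, chr8:96909803-96911976) spanned 2 sham peaks (832 bp and 746 bp). The length under peaks at the locus was 3076 bp and 3085 bp. Syvn1, which encodes HRD1 itself, ranked 89 and 111. All 11 hepatectomy peaks of the 4 loci were shared, and 13 of their 14 sham peaks.

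Translocon and vesicle traffic loci were also placed high in both lists, with a median best rank of 173 after hepatectomy and 143 after sham over 7 loci. Ssr3, a subunit of the translocon-associated protein complex, ranked 7 after hepatectomy (chr3:65195356-65196979) and 24 after sham. Sec31a, an outer coat protein of COPII vesicles, ranked 45 and 69. Sec61b, a subunit of the translocation channel, ranked 133 and 47, and Sec23b, of the inner COPII coat, 479 and 143. Sec61a1 and Sec13 lay lower, at 1204 and 1137 and at 2101 and 2916.

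Among the regulators of the unfolded protein response the Xbp1 locus itself ranked 53 after hepatectomy (chr11:5420492-5422277) and 127 after sham. Atf4, the translationally controlled factor of the PERK branch, ranked 84 and 173. Its best-ranked hepatectomy peak (1631 bp wide) spanned 2 sham peaks, of 919 bp and 428 bp. Atf6 ranked 131 and 96, and Ddit3, which encodes the pro-apoptotic factor CHOP, 386 and 249. Ern1, which encodes IRE1 alpha, stood apart with weak peaks only, at best ranks of 13394 and 8930. It held 5 hepatectomy and 9 sham peaks, of which 4 in each list were shared, and its best hepatectomy peak (chr11:106300189-106300562) had no sham counterpart.

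Over these 4 ER lists the best rank was nearer the top after hepatectomy at 16 loci and after sham at 15. The lists held 87 hepatectomy peaks over 67.6 kb and 94 sham peaks over 64.9 kb, and 28 of the 31 loci had a peak within the first 1000 ranks in each library. In the other libraries 29 of the 31 loci had a peak in basal liver and 28 in the silenced 6 h liver, beside 39 and 48 of all 70 loci. Those lists are shorter, with 2482 and 4325 peaks.

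At the acute phase loci more peaks were called after hepatectomy, while the best ranks lay nearer the top after sham. The 8 loci held 77 peaks over 46.8 kb after hepatectomy and 59 peaks over 31.8 kb after sham, whereas the whole lists covered 11.0 Mb and 10.9 Mb. By locus, 6 had more peaks after hepatectomy, 2 had equal numbers and 0 had more after sham, whereas over all 70 loci these numbers were 20, 39 and 11. Without the 10 kb margins the list held 52 and 37 peaks, and 5 of the 22 locus counts, the first of these included, stayed within 1.5 times. The best rank was nearer the top of its list after sham at 7 of the 8 loci, beside 53.2% of all pairs, and some of the 7 were close (percentiles of 10.4 and 9.88 at Hp, and of 16.9 and 14.1 at Saa1-Saa4). The median best rank was 3321 after hepatectomy and 2564 after sham. Of the hepatectomy peaks at these loci 53 of 77 (68.8%) were shared, and of the sham peaks 51 of 59 (86.4%), beside 76.9% and 74.1% of all peaks. In basal liver 2 of the 8 loci had a peak, and in the silenced 6 h liver 6, beside 39 and 48 of all 70 loci.

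The fibrinogen locus, which encodes the 3 chains of the clotting protein (Fgb, Fga, Fgg), had 26 hepatectomy peaks and 18 sham peaks, with 16 shared in each list, so that 10 peaks were called after hepatectomy alone and 2 after sham alone. All of these were weak, at percentiles of 63.2 to 99.6 for the 10 and of 92.0 and 94.9 for the 2. Counterparts were fewer at such ranks in the whole hepatectomy list, at 67.1% in decile 7 and 49.2% in decile 10. Peaks covered 15769 bp and 8940 bp of it. Its best-ranked site was the same in both lists, at chr3:82842714-82843244 after hepatectomy (rank 2315, 531 bp) and chr3:82842767-82843283 after sham (rank 1190, 517 bp). The Saa1-Saa4 locus, which encodes the serum amyloid A proteins, had 9 and 7 peaks over 7005 bp and 3574 bp, with best ranks of 3730 and 3237. At Hp, which encodes the haemoglobin scavenger haptoglobin, 9 peaks were called in each list, over 6377 bp and 5565 bp, and the ranks of 2302 and 2270 were nearly equal. The Orm1-Orm3 locus of the orosomucoids had 12 and 10 peaks, with best ranks of 4250 and 2857.

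Signalling and other genes of the response were as follows. Stat3, the transcription factor downstream of interleukin 6, had 6 hepatectomy and 4 sham peaks, all 4 sham peaks shared, with best ranks of 1279 and 841 at chr11:100800664-100801662. Socs3, the feedback inhibitor of that pathway, had 7 and 6 peaks and ranks of 2912 and 1502. Cebpb, a C/EBP factor of the response, was the exception in rank, at 4660 after hepatectomy and 7245 after sham, with 6 peaks against 3. Crp had 2 peaks in each list, both shared, at ranks of 9261 and 8271.

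**Figure D4:**
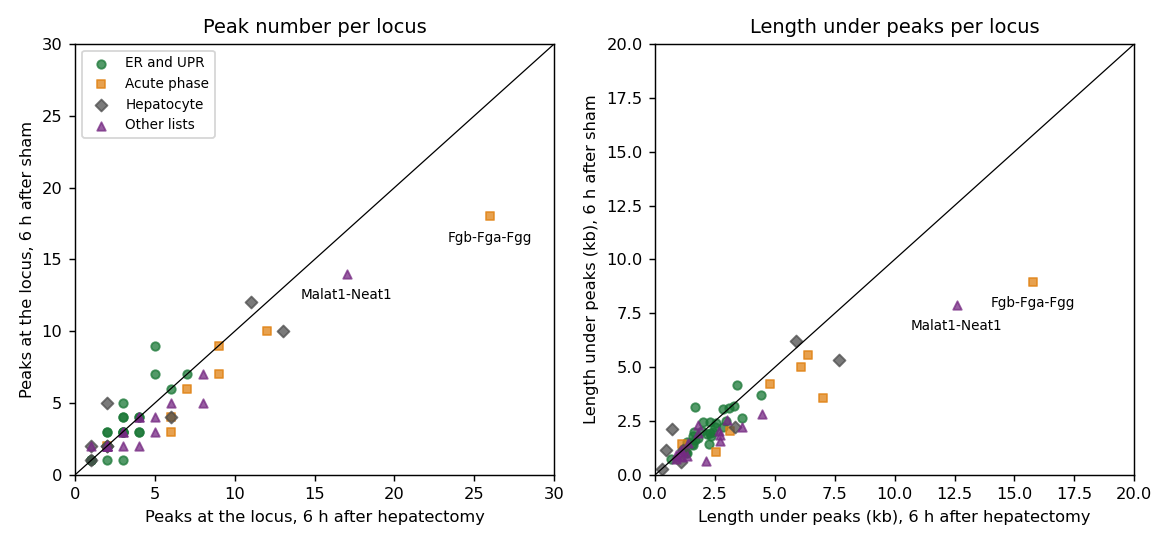
Number of peaks (left) and length under peaks in kb (right) at each of the 65 loci, 6 h after hepatectomy on the horizontal axis and 6 h after sham on the vertical axis, and the line marks equal values. Fibrinogen (26 against 18 peaks, 15769 bp against 8940 bp) and Malat1-Neat1 (17 against 14 peaks, 12.6 kb against 7.90 kb) lie farthest below the line in length. In number, Malat1-Neat1 differs by 3 peaks toward hepatectomy, as do Hnf4a, Cebpb and Fasn. Toward sham the widest gaps in number are at Ern1 (5 against 9 peaks) and Alb (2 against 5).

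Loci of hepatocyte genes had 38 peaks in each list, of which 25 after hepatectomy (65.8%) and 27 after sham (71.1%) were shared, both below the shares of all peaks. Foxa1, a pioneer factor of liver, had ranks of 943 and 1502, and Cebpa 1551 and 1847. Foxa2 went the other way, with 3958 after hepatectomy and 1117 after sham. The nuclear receptor gene Hnf4a had 13 and 10 peaks, 6 and 7 of them shared. Alb, the gene of the main plasma protein, had 2 weak peaks after hepatectomy (best rank 10499) and 5 after sham (best rank 5013). The apolipoprotein locus Apoa1-Apoc3-Apoa4 had 11 and 12 peaks with best ranks of 1167 and 1559. Afp, the fetal counterpart of albumin, had 1 weak peak in each list, at ranks of 19264 and 17435.

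Immediate early and growth genes had peaks at all 7 loci in both lists, 22 and 21 in number, with 19 shared in each. Ccnd1, which encodes the G1 cyclin D1, ranked 1030 after hepatectomy and 2056 after sham, and Fos, an AP-1 subunit, 1334 and 1719. The stress-induced factor Atf3 ranked 4458 and 8921, and Ier3 ranked 5073 and 14474, the widest gap of this list. The best Atf3 peaks were different sites. Jun went the other way, at 5814 and 3098. Myc, the growth regulator, ranked 6958 and 6141, with 2 peaks in each list. In all, the best rank was nearer the top after hepatectomy at 5 loci and after sham at 2.

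At the 6 DNA damage response loci the lists held 18 and 16 peaks, with 15 shared in each. Cdkn1a, which encodes the cell cycle inhibitor p21, ranked 1199 after hepatectomy (1062 bp wide) and 3035 after sham (753 bp). Btg2, an antiproliferative p53 target, ranked 3135 and 1847, and Gadd45b ranked 5235 and 9706. Trp53 itself had weak peaks, with best ranks of 9261 and 17435. The sham rank is a tie of 2 peaks, and 1 of them (chr11:69393667-69393995) overlaps the best hepatectomy peak. The best rank was nearer the top after each operation at 3 loci, and no basal peak lay at any of the 6 loci. Over all 70 loci 39 had a basal peak, and the basal list is short (2482 peaks).

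At all 3 lipid synthesis loci more peaks were called after hepatectomy, 19 against 14 in all, and 7 against 3 without the margins. Srebf1, the master regulator of lipogenesis, ranked 378 and 876, Scd1, a fatty acid desaturase, 715 and 1847, and Fasn, fatty acid synthase, 3510 and 3077. The Malat1-Neat1 locus of 2 nuclear long noncoding RNAs had 17 peaks over 12.6 kb after hepatectomy and 14 over 7.90 kb after sham, with close best ranks of 157 and 189. Loci of other cell types were empty in both lists at 5 of 6: the leukocyte genes Ptprc and Spi1, the macrophage gene Adgre1, the endothelial gene Pecam1 and the stellate cell gene Des. The window of the macrophage gene Cd68 had 5 and 3 peaks, and 1 and 0 without its margins. A peak does not measure expression, so this describes occupancy only. An empty window could also be a misplaced one, since the windows were not checked against an mm9 annotation.

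Rank shifts were described at pairs that were highly ranked in at least 1 list. Over pairs in the best-ranked decile of either list, the largest shift toward hepatectomy was at chr7:125677753-125678622, at rank 2165 after hepatectomy and 21236 after sham. There the peak was 870 bp wide after hepatectomy and 298 bp after sham. It was followed by chr7:134984529-134985236 (ranks 1938 and 18988), chr4:144570665-144571504 (1938 and 18522), chr17:15329642-15330119 (1426 and 17435) and chr2:167474670-167475181 (1233 and 15888). All 5 sites were called again in silenced liver 6 h after hepatectomy, judged here and below by the hepatectomy peak of the pair. Of the 5, only chr7:134984529-134985236 was called in basal liver and 48 h after sham. Both it and chr4:144570665-144571504 were called 48 h after hepatectomy. The largest shift toward sham was at chr4:104859316-104859606, at rank 19929 after hepatectomy and 2143 after sham (291 bp and 508 bp). The next lay at chr7:78612984-78613287 (16928 and 1171), chr15:9206455-9206805 (15686 and 1005), chr4:125626970-125627311 (15686 and 1249) and chr1:121970278-121970629 (15374 and 1958). Of these 5 sites, 0 were called in silenced liver 6 h after hepatectomy and 4 were called 48 h after sham. All but chr1:121970278-121970629 were also called in basal liver. That site and chr7:78612984-78613287 were called 48 h after hepatectomy.

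Unmatched peaks were of low rank, and most lay more than 1000 bp from any peak of the other list. There were 5092 after hepatectomy and 5989 after sham, with median ranks of 16516 and 17435, whereas shared peaks had medians of 8773 and 8930. Only 2 unmatched hepatectomy peaks and 9 unmatched sham peaks were in the best-ranked decile of their list. The best-ranked unmatched sham peaks lay at chr6:142407802-142408410 (rank 1292, 7286 bp from the nearest hepatectomy peak), chr14:31074584-31075054 (rank 1330, 79888 bp) and chr1:38921253-38921675 (rank 1712, 122360 bp). The next lay at chr8:13364709-13365200 and chr11:60629857-60630349, both at rank 1958. The unmatched hepatectomy peak with the best rank, 1426, lay at chr16:93615198-93615779. A peak of the other list was within 500 bp of 11.4% of the unmatched hepatectomy peaks and of 8.93% of the unmatched sham peaks, and the median distances were 8250 bp and 8907 bp. At the edge of the definition, the smallest overlap of a pair was 3 bp, and the closest unmatched peaks touched a peak of the other list without overlapping it.

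Peaks were slightly wider after hepatectomy. The median width was 429 bp over all hepatectomy peaks and 412 bp over all sham peaks, and the shortest peaks had 259 bp and 249 bp. At the pairs the median difference was 16 bp (interquartile range, -70 to 105 bp), with 9253 pairs (55.2%) wider after hepatectomy and 7460 (44.5%) wider after sham. In the best-ranked decile of the hepatectomy list the pair medians were 763 bp after hepatectomy and 686 bp after sham, and in its last decile 300.0 bp and 373 bp. Selecting by hepatectomy rank favours wide hepatectomy peaks, since score and width went together (rho of 0.73 across hepatectomy peaks and 0.70 across sham peaks). Selected by sham rank, the best-ranked decile had medians of 721 bp after hepatectomy and 697 bp after sham. Peaks over 1 kb numbered 1020 after hepatectomy (4.62%) and 780 after sham (3.38%). Midpoints of paired peaks lay 41.5 bp apart in the median. A hepatectomy peak spanned more than 1 sham peak at 353 sites, and a sham peak more than 1 hepatectomy peak at 241.

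Most dense clusters of each list overlapped one of the other. Linking peaks within about 13 kb gave 558 clusters of at least 5 peaks after hepatectomy, with 3723 peaks (16.9%), and 630 after sham, with 4158 peaks (18.0%). With equal numbers of highest-scoring peaks the order turned, with 3723 clustered peaks after hepatectomy and 3577 after sham. Of the hepatectomy clusters 372 (66.7%) overlapped a sham cluster, and of the sham clusters 371 (58.9%) overlapped a hepatectomy cluster. Clustered peaks had slightly better ranks than isolated ones, with median percentiles of 48.5 and 49.9 after hepatectomy and of 48.5 and 50.4 after sham. They were shared slightly more often, at 77.6% against 75.9% after hepatectomy and 75.2% against 73.2% after sham.

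The largest cluster of either list was the stretch that includes the fibrinogen genes, at chr3:82806381-82858268. It held 35 hepatectomy and 22 sham peaks over 21930 bp and 12240 bp, with best ranks of 1140 and 1117, and had no basal peak. The second after hepatectomy was the Malat1-Neat1 stretch at chr19:5798857-5851669. At chr2:164246819-164286791 there were 16 and 15 peaks over 10051 bp and 7661 bp, also with no basal peak. The largest clusters of the sham list after fibrinogen lay at chr14:26300745-26360012, with 10 hepatectomy and 15 sham peaks, at chr15:58808067-58881175, with 15 in each, and at the chromosome 2 stretch above, also with 15 sham peaks.

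In fixed windows of 100 kb, peak numbers of both lists went together (Pearson r of 0.85 across the 9237 windows with a peak in either list, which share the same libraries). The hepatectomy list had more peaks in 2519 windows, the sham list in 3063, and numbers were equal in 3655. A difference of at least 5 peaks was found in 17 windows toward hepatectomy and in 31 toward sham. After the fibrinogen window, the largest differences toward hepatectomy were at chr2:167100001-167200000 (13 and 5 peaks), chr12:110000001-110100000 (12 and 5), chr8:87500001-87600000 (19 and 13) and chr8:109400001-109500000 (7 and 1). Toward sham they were at chr10:88900001-89000000 (4 and 12), chr19:46700001-46800000 (8 and 15), chr6:129100001-129200000 (7 and 14), chr17:85400001-85500000 (4 and 11) and chr10:107800001-107900000 (4 and 10). By chromosome, the ratio of hepatectomy to sham peaks ran from 0.900 on chromosome 14 to 1.00 on chromosome 7 among the autosomes, and was 1.18 on X (255 and 217 peaks).

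The other libraries, which had no part in defining shared sites, held unlike shares of the 2 sets of unmatched peaks. XBP1-silenced liver 6 h after hepatectomy held 2.81% (2.37 to 3.30%) of the unmatched hepatectomy sites and 0.468% (0.311 to 0.675%) of the unmatched sham sites. In the best-ranked quartile of each list these shares were 27.3% (30 of 110 peaks) and 4.71% (4 of 85). The order was the opposite 48 h after hepatectomy, where 3.52% (3.03 to 4.06%) of the unmatched hepatectomy peaks and 6.24% (5.65 to 6.89%) of the unmatched sham peaks had a peak. In the best-ranked quartile these were 11.8% and 32.9%. With the 48 h hepatectomy list shortened to as many peaks as the 48 h sham list these shares were 1.51% and 2.60%. In the list 48 h after sham the shares were 1.39% (1.09 to 1.76%) and 1.75% (1.44 to 2.12%), intervals that overlap, and in basal liver 0.432% and 0.501%. In the best-ranked quartile, however, they were 2.73% (3 of 110, 0.566 to 7.76%) and 21.2% (18 of 85, 13.1 to 31.4%) 48 h after sham. In basal liver they were 0 of 110 (up to 3.30%) and 7.06% (2.63 to 14.7%). The lower quartiles differed less 48 h after sham, with 3.13% and 4.71% in quartile 2 and 0.617% and 0.805% in quartile 4. Quartile 3 went the other way, with 1.78% and 1.24%. These intervals cover counting error only.

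Shared peaks were found elsewhere far more often. The shares were about equal for both lists, which follows from their shared peaks being largely the same sites. Of shared hepatectomy peaks 14.1% had a basal peak, 36.5% a peak 48 h after hepatectomy, 25.6% one 48 h after sham and 23.7% one in the silenced 6 h liver. The lengths of those lists bound these shares, at 2482, 7212, 4622 and 4325 peaks in the same order. In number, 2388 shared hepatectomy peaks had a basal peak and 4031 a peak in the silenced 6 h liver. Low shares thus do not mean that most basal or silenced peaks lie elsewhere. Within the shared pairs the silenced 6 h list and the 48 h hepatectomy list showed the same contrast by rank shift. A pair was counted only where its hepatectomy peak overlapped the other list, and that peak has the worse rank in pairs shifted toward sham. Pairs ranked at least 25 percentage points better after hepatectomy had a peak in the silenced 6 h list at 13.9% and 48 h after hepatectomy at 17.0%. For pairs ranked at least 25 points better after sham these were 5.12% and 26.5%. With the 48 h hepatectomy list shortened as above, its shares were 8.15% and 14.6%. The median percentiles of both groups mirrored each other (34.9 and 77.5 in the first, 76.0 and 34.7 in the second). In the 48 h sham list the shares of these groups were 11.6% and 12.4%, with overlapping intervals. In basal liver they were 3.83% and 4.98%, also with overlapping intervals. Pairs within 25 points had higher shares in each list, such as 28.6% in the silenced list and 41.4% 48 h after hepatectomy. Whether these shares come from the operations, from single animals or from the making of the libraries cannot be told apart with 1 library each.

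**Figure D5:**
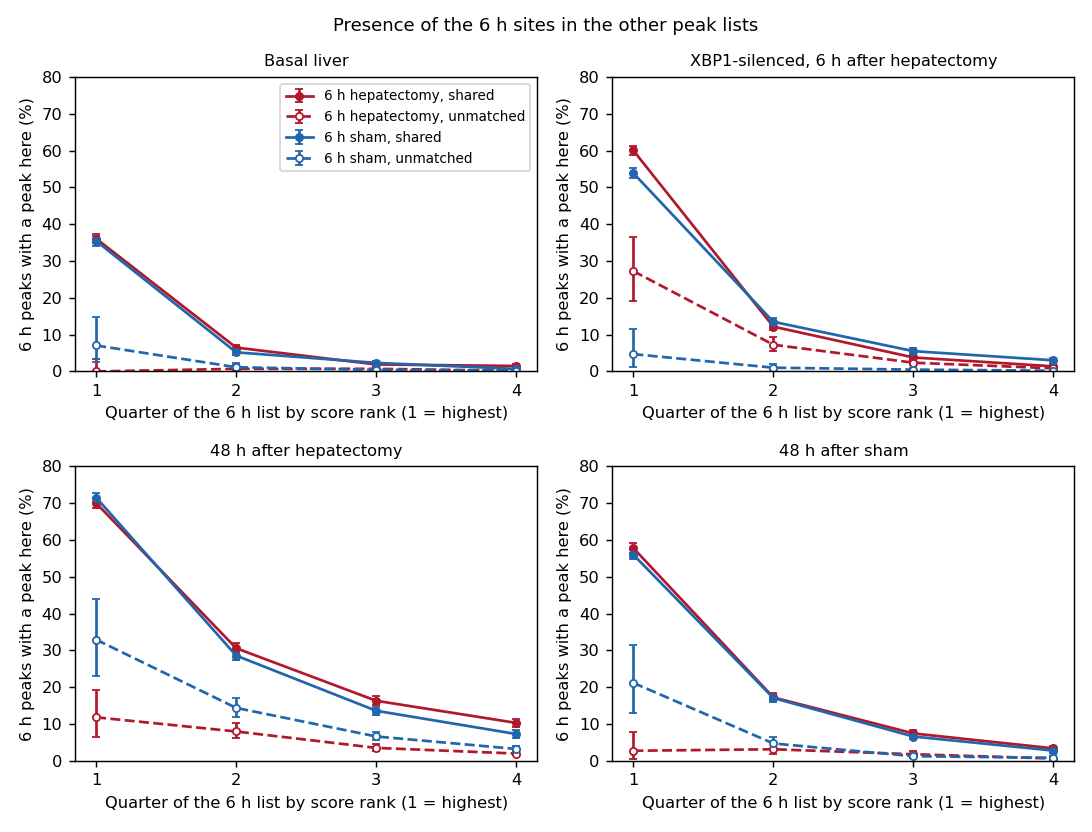
Percentage of 6 h peaks that have a peak in each of 4 other lists, by quartile of the 6 h list by score rank, for shared (filled, solid lines) and unmatched (open, dashed lines) peaks after hepatectomy (red) and sham (blue), with 95% Clopper-Pearson intervals. Unmatched hepatectomy peaks lie above unmatched sham peaks in the silenced library and below them 48 h after hepatectomy.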

How the data were processed

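Peak lists from XBP1 ChIP-seq of 8 mouse liver libraries were used. The input library was left out because no peak list goes with it. Each list gives chromosome, start, end, name and a score per peak. The score was deposited by the authors with no statement of its scale, and was used only as a rank within its list. The submitters' processing notes name Bowtie2, MACS 1.4.2 and mm9. Settings, read numbers and whether input served as control are not given in those sources. There is 1 list per library. Positions are mm9, 1-based, and none was converted between builds.

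Groups come from the sample titles. Ranks (ties share the best rank, percentiles use their mean), overlaps and clusters were made in Python 3.11.15 using pandas 2.3.3, NumPy 2.4.6 and SciPy 1.17.1, plotted with matplotlib 3.10.9 and checked on simulated data against bedtools 2.31.1. A pair is 2 peaks that are each other's largest overlap. Locus windows were written from general knowledge of mm9. All 48 neighbouring pairs of single-gene windows had the order of RefSeq on GRCm38. Their spacing differed by at most 50 kb in 37 pairs and by up to 6400 kb in the others, and builds themselves differ in spacing, so the windows remain unchecked against an mm9 annotation. Named sites are, by rule, the 10 best shared pairs, the 5 best unmatched peaks per list, the 5 largest shifts each way among the best-ranked decile, the 5 largest clusters and the 5 fullest and 5 most unequal windows each way, of which the text gives a part. The rule allowed up to 4 loci per list, and the text names more, chosen after their values were seen. The members, lists and windows were chosen with earlier results of these data known. Alternatives changed the overlap, the peaks entered, the linking distance, the cluster size and the locus margins.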

Additional observations from a re-analysis of the deposited data

Results flagged for a closer look

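Hepatectomy and sham differed in opposite directions at 6 h and at 48 h. Relative to sham, the number of peaks after hepatectomy was 0.956 at 6 h (22071 and 23087 peaks) and 1.56 at 48 h, as a ratio (7212 and 4622 peaks). The ratio of median peak widths was 1.04 at 6 h (429 and 412 bp) and 0.765 at 48 h (290 and 379 bp). The shortest peak of each list differed in the same directions, with 259 and 249 bp at 6 h and 190 and 266 bp at 48 h. Whether the medians follow this smallest width of each list was not tested. With 1 library per condition the difference between times was not tested, and library depth, whose part was not tested, is not given in the lists.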

How the results depend on the processing

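Read numbers were not used here, so depth and number of bound sites cannot be separated. The share of hepatectomy peaks with a sham counterpart was 74.1% with midpoints within 250 bp, 70.4% with overlap of at least 50% of both peaks, 75.3% with equal numbers of highest-scoring peaks and 75.4% in the best-ranked 50% of each list. The share of sham peaks was 70.9%, 67.3%, 75.6% and 72.5% under the same settings, so that with equal numbers the sham share was the higher one. The rank agreement was 0.72 with overlap of at least 50% and 0.67 in the best-ranked 50%. The median width difference was 15 bp with midpoints, 14 bp with overlap of at least 50%, 15 bp with equal numbers and 26 bp in the best-ranked 50%. That last setting, with fewer pairs by construction, left 988 pairs shifted toward hepatectomy and 1224 toward sham. With equal numbers of highest-scoring peaks 1959 pairs were shifted toward hepatectomy and 2007 toward sham. Peaks in clusters numbered 1211 after hepatectomy and 1226 after sham with linking within 5 kb, and 1301 and 1433 with at least 8 peaks per cluster. With equal numbers of peaks they numbered 3723 and 3577, so that more lay in clusters after hepatectomy, the reverse of the order over all peaks. Leaving out peaks over 2 kb and chromosome Y moved no share beyond its counting interval, and left the rank agreement and the width difference as printed.

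Both settings below were chosen after seeing the data. With the 48 h hepatectomy list shortened to the length of the 48 h sham list, it held 1.51% of the unmatched hepatectomy and 2.60% of the unmatched sham peaks. Without the 10 kb margins, which shortens the windows by construction, acute phase loci had 52 hepatectomy and 37 sham peaks, ER chaperone loci 21 and 20, ERAD loci 7 and 10, translocon and traffic loci 10 and 11, and regulators of the unfolded protein response 9 and 15. Hepatocyte loci had 21 and 22, immediate early and growth loci 12 and 9, DNA damage loci 10 and 9, lipid synthesis loci 7 and 3, Malat1-Neat1 13 and 7, and loci of other cell types 1 and 0. Of these 22 counts 5 stayed within 1.5 times. No paired analysis was possible because each condition has 1 library and the labels give no replicate numbers.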
